A study of Homo sapiens with 2 samples.

Results

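The 46 genes described here encode integrin subunits and the proteins that gather on their cytoplasmic tails in focal adhesions. They were set by name, as a list of 18 integrin subunits, 4 tensins, 6 linkers to actin, 13 adaptors and 5 kinases, among 20037 protein-coding genes of the reference. A member had a peak when the summit of a deposited peak lay within its RefSeq gene span. By this rule 17 of the 46 members had a peak, which is 37.0% (95% exact binomial interval 23.2 to 52.5%), whereas 18.4% of all protein-coding genes did, and 29 members had none. The members were chosen with earlier results of these data known, so their shares are descriptions and no test of enrichment.

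The peaks come from RNA immunoprecipitation sequencing (RIP-seq) with 5 µg of an antibody against HNRNPC in the established line A549, which derives from a human lung carcinoma of the non-small cell kind. There were 2 samples of A549 cells, for which the labels name no treatment, 1 HNRNPC IP library and 1 input library prepared without the antibody step. All values below come from the peaks called for the IP library; values of the input were not used here. The series concerns HNRNPC as a reader of m6A in this cancer. With 1 library per group there is no replicate, so samples were not tested against each other and values carry no replicate error. Read totals are not in the list, so depth is unknown. The list held 23111 peaks on chromosomes 1 to 22, X and Y, with a median fold enrichment of 5.76 (quartiles 4.79 and 7.22) over the background the peak caller used. Both the fold and the q of a peak were computed by the authors, and they serve for description and ranking inside the list alone. A peak needs expressed RNA, and expression was not measured, so a gene without a peak is not shown to be unbound. Of the markers of epithelium and lung carcinoma, 1 of 9 had a peak (CDH1, with 10 peaks), as did 0 of 9 fibroblast and endothelial and 0 of 7 leukocyte markers, which at these numbers allows shares of up to 33.6% and 41.0%. The list therefore does not serve to check the cell type.

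Integrins are heterodimers of an alpha and a beta chain that bind extracellular matrix outside the cell. Inside the cell, talins and kindlins bind the beta tail and switch the receptor on, vinculin and alpha-actinin tie it to actin, and the focal adhesion kinase PTK2 and the kinase SRC start signalling through scaffolds such as paxillin and BCAR1. HNRNPC is a nuclear protein that binds runs of U in pre-mRNA, commonly in introns. It takes part in the splicing and packaging of nascent transcripts.

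The starts of several member genes are shown first, because 9 of the 14 members with a peak and a known strand had a summit within the first 1 kb of the span. These were ITGA2, ITGA6, ITGAV, ITGB1, TNS3, VCL, TES, CRK and CRKL. Of all protein-coding genes with a peak and a known strand, 51.7% had such a summit, which lies within the exact interval of the members' share (64.3%, 35.1 to 87.2%). The stretches below run from 70 bases before an annotated RefSeq transcript start to 30 bases from it on, on the gene's own strand, in build GRCh38.p14, and capitals mark the bases that a peak covers. They lie at chr5:52989282-52989381 (plus strand), chr2:172427516-172427615 (plus strand), chr2:186589986-186590085 (plus strand), chr10:32958201-32958300 (minus strand), chr7:47582557-47582656 (minus strand), chr3:188212642-188212741 (plus strand) and chr17:1456203-1456302 (minus strand), in the order shown. The LPP stretch belongs to a start 59.7 kb inside the gene.
ITGA2: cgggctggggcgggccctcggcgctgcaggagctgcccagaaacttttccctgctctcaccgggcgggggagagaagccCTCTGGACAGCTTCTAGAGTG
ITGA6: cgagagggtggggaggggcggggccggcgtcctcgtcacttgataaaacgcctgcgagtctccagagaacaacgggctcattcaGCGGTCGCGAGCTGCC
ITGAV: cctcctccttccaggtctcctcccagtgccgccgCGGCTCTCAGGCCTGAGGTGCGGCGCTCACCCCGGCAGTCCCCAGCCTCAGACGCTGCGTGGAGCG
ITGB1: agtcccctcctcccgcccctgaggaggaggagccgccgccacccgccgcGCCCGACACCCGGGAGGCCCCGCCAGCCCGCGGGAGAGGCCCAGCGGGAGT
TNS3: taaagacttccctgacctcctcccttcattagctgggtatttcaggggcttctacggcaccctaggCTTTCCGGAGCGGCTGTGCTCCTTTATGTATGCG
LPP: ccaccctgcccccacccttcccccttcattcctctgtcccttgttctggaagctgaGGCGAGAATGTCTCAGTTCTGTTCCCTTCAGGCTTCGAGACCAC
CRK: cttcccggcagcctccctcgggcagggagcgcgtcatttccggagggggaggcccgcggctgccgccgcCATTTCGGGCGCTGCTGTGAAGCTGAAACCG

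In the main starts of ITGAV and ITGB1 the peak reached 36 and 21 bases upstream of the annotated start and covered the first transcribed bases. In ITGA2, ITGA6, TES and CRKL it began 9, 14, 19 and 30 bases downstream of the start base. The sequence around these starts was mostly rich in G and C. The 300-base RefSeq promoter windows, which run from 250 bases before a start to 50 after it, were 78.3% G and C at ITGB1, 77.0% at CRK, 72.7% at ITGA2, 72% at ITGA6 and 70.7% at ITGAV, whereas the median of all 35116 windows was 58.7%. TNS3 and the internal LPP start shown above had 51.7% each. Another internal LPP start near it had 57.7%, and a second ITGB1 start inside the gene had 40.7%. Of the 11 member windows that a peak touched, in 9 members, 3 held TTTTT on the gene's strand and 0 held it on the other strand. These 3 were the windows of TNS3, the internal LPP start shown above and the second ITGB1 start. Among all windows 24.9% held TTTTT on the gene's strand, and 39.2% on either. A match of these letters is a description of the window and says nothing about binding.

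**Figure D1:**
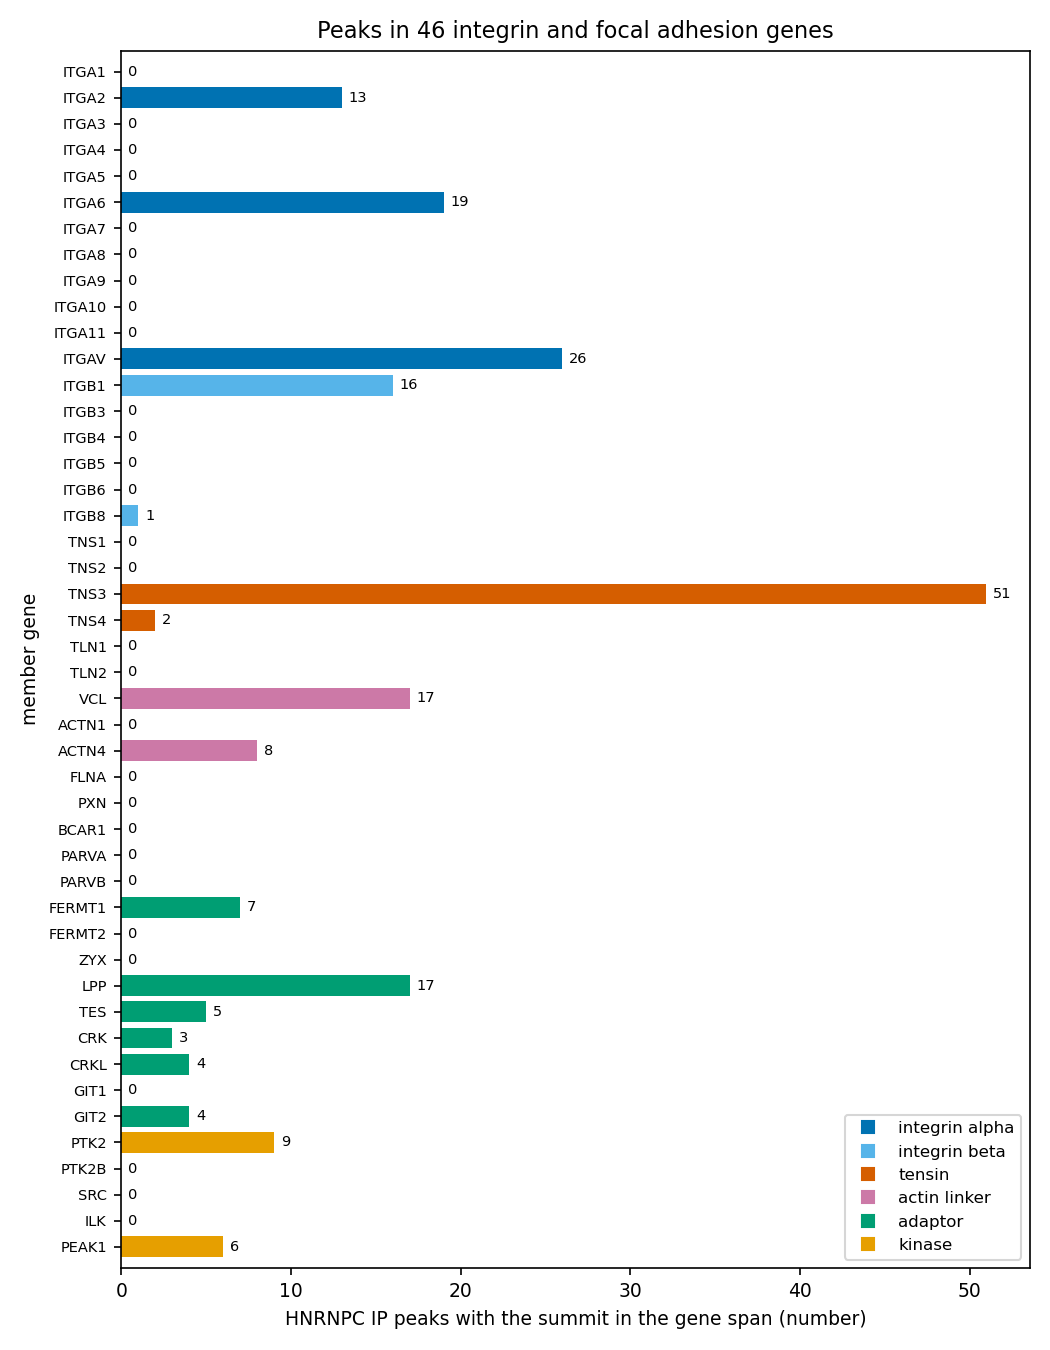
Number of HNRNPC IP peaks whose summit lies in the gene span (horizontal axis) for each of the 46 members (vertical axis), coloured by class. TNS3 stands at 51, followed by ITGAV at 26 and ITGA6 at 19, while 29 members are at 0.

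The peaks were concentrated in few members. Together the 17 members carried 208 peaks, with a median of 8 peaks in a member with a peak and 4 in a protein-coding gene with a peak. TNS3, ITGAV and ITGA6 held 96 of the 208 (46.2%). Of the 46 members 7 had 10 or more peaks (15.2%, exact interval 6.34 to 28.9%), compared with 3.9% of all protein-coding genes. A peak with a fold of 10 or more was present in 9 members (19.6%, 9.36 to 33.9%) and in 3.77% of protein-coding genes. The median best fold of the 17 members was 11.1, against 7.04 in all protein-coding genes with a peak. The best fold is the highest among a gene's peaks, so these fold comparisons are not matched for the number of peaks per gene. The median over single peaks was 5.72 in members and 5.76 in the whole list, so the pooled member peaks had a median fold near that of the list. This pool is uneven: TNS3 alone gave 51 peaks with a median of 4.79. By class the median over peaks ran from 4.79 in tensins to 6.83 in integrin alpha chains.

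The members were longer than most genes. Members spanned a median of 80.4 kb, and all protein-coding genes 24.1 kb. Among members under 30 kb 1 of 8 had a peak, against 7.16% of protein-coding genes of that length, and between 30 and 100 kb 10 of 20 did, against 30.5%. From 100 to 300 kb 2 of 12 members had a peak, against 39.2% of genes, and at 300 kb or more 4 of 6 did, against 25.4%. The share of members was thus the higher one in 3 of the 4 length groups and the lower one from 100 to 300 kb. Members were few in each group, and under 30 kb the share rests on 1 gene, TNS4. The 18.4% of all protein-coding genes is not matched to the length of the members. The 37.0% set beside it is thus no excess at equal length. The part of expression in these differences was not tested.

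**Figure D2:**
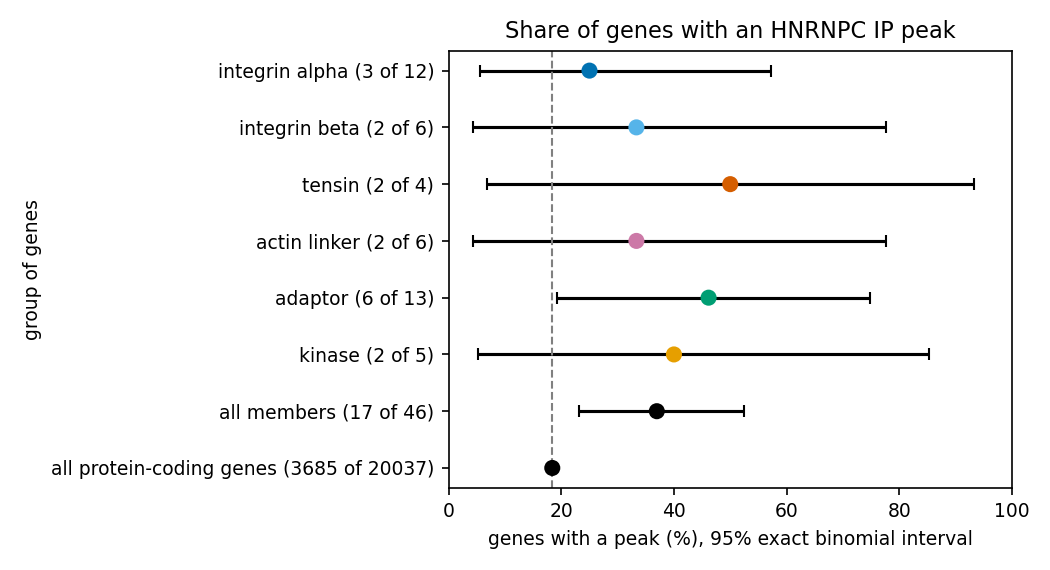
Share of genes with a peak (horizontal axis, %) for each class of members, all members and all protein-coding genes; points are shares and bars 95% exact binomial intervals. The dashed line marks the 18.4% of all protein-coding genes, and the intervals of the 6 classes overlap each other.

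The shares did not separate the classes. Peaks lay in 5 of 18 integrin subunits (27.8%, 9.69 to 53.5%) and in 12 of 28 other members (42.9%, 24.5 to 62.8%). Tensins had a peak in 2 of 4 cases, adaptors in 6 of 13, kinases in 2 of 5 and actin linkers in 2 of 6. Every pair of these intervals overlaps. The 5 integrin subunits with a peak had a median of 24.0 peaks per 100 kb of span, over a range from 1.16 in ITGB8 to 28.6 in ITGAV. The corresponding medians were 12.2 for tensins, 11.7 for actin linkers, 9.40 for adaptors and 2.24 for kinases. With 2 to 6 genes behind each median these are descriptions of the named genes, and density also falls with gene length: its median over protein-coding genes with a peak was 7.41 per 100 kb at 30 to 100 kb and 1.32 at 300 kb or more. All these intervals cover counting error only, and peaks that neighbour each other in a gene are not independent of each other.

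Among the alpha subunits, 3 of 12 had a peak. ITGAV (NCBI gene 3685, chr2:186590056-186680901), the alpha V chain of receptors for vitronectin and fibronectin that also activate latent TGF-beta, had 26 peaks in 90.8 kb. This gave 28.6 peaks per 100 kb (exact Poisson interval 18.7 to 41.9) and placed it at 51 among all protein-coding genes by number of peaks. Its folds ran from 4.25 to 14.01 with a median of 7.58. The highest was a peak of 175 bp at chr2:186668767-186668941 (q 2.78e-22), and others of 13.1 and 12.6 lay at chr2:186641359-186641599 and chr2:186636079-186636232. The widest, 510 bp at chr2:186590020-186590529, covered the start of the gene with a fold of 4.97. The signal of ITGAV was therefore spread in narrow peaks through the body of the gene, with 21 of the 26 summits between 30 and 80 kb from the start (median fold 8.19), and the other 5 had a median of 4.61.

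ITGA6 (NCBI gene 3655, chr2:172427336-172506459), the alpha 6 chain of laminin receptors, had 19 peaks in 79.1 kb, or 24.0 per 100 kb (14.5 to 37.5). The highest fold, 11.6, was shared by peaks at chr2:172469143-172469408 and chr2:172474112-172474261, and the peak at the start of the gene, chr2:172427600-172427987, had 11.1. The widest, of 435 bp at chr2:172487021-172487455, had 6.93. Between 38.3 and 63.9 kb from the start lay 16 of the 19 summits, and a gap without any summit separated them from the peak at the start. At 18 of the 19 summits the RefSeq span of the lncRNA gene PDK1-AS1 overlaps that of ITGA6. The list has no strand, so the RNA of these genes cannot be told apart here.

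ITGA2 (NCBI gene 3673, chr5:52989352-53094779), the alpha 2 chain of a collagen receptor, had 13 peaks in 105.4 kb, or 12.3 per 100 kb (6.57 to 21.1). They were narrow and even, from 47 to 180 bp wide, with folds from 4.79 to 7.22. The highest fold belonged both to the peak at the start, chr5:52989361-52989427, and to a peak 37.5 kb into the gene. At the summit near the start the span of ITGA2-AS1 overlaps that of ITGA2, and at the other that of LOC124900974 does. Without strand in the list, the RNA of these genes cannot be told apart. The remaining 11 ITGA2 peaks lay between 62.2 and 92.3 kb from the start. ITGA1, ITGA3, ITGA4, ITGA5, ITGA7, ITGA8, ITGA9, ITGA10 and ITGA11 had no peak. ITGA5, the fibronectin receptor chain, spans 24.01 kb and ITGA1, also a collagen receptor chain, 171.3 kb.

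Among the beta subunits the peaks were nearly all in ITGB1 (NCBI gene 3688, chr10:32900318-32958230), the beta 1 chain that pairs with many alpha chains, alpha 2, alpha 6 and alpha V among them. ITGB1 had 16 peaks in 57.9 kb, or 27.6 per 100 kb (15.8 to 44.9), and they covered 18.8% of the span, the highest such share among the members. The peak of highest fold, 14.5, was also the widest peak of all members, 7941 bp at chr10:32950000-32957940 (q 7.36e-22). Beside it lay a peak of 1249 bp at chr10:32948446-32949694 with a fold of 8.61. At the start of the gene itself the fold was 2.97, with a q of 0.00577. Every ITGB1 summit lay within 28.3 kb of the start, and the folds of the last 3 in that direction, at 22.7, 25.7 and 28.3 kb, were 3.11, 3.74 and 2.42. The signal of ITGB1 thus lay in the first part of the gene, and the rest of the span had no summit. At 1 summit the pseudogene AK3P5 overlaps.

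ITGB8 had 1 peak, 133 bp wide with a fold of 4.29 and a q of 0.00577, at chr7:20411443-20411575, 4.29 kb before the end of the gene. It ranked 20502 of 23111 by fold and was the weakest best peak among the members. ITGB3, ITGB4, ITGB5 and ITGB6 had none. The chains that form the laminin and collagen receptors alpha 6 beta 1 and alpha 2 beta 1 thus both carried peaks in this library. Of alpha 6 beta 4, the receptor of hemidesmosomes, the alpha chain alone did, and of the fibronectin receptor alpha 5 beta 1 the beta chain alone. For alpha V, the partners beta 1 and beta 8 had peaks and beta 3, beta 5 and beta 6 had none.

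**Figure D3:**
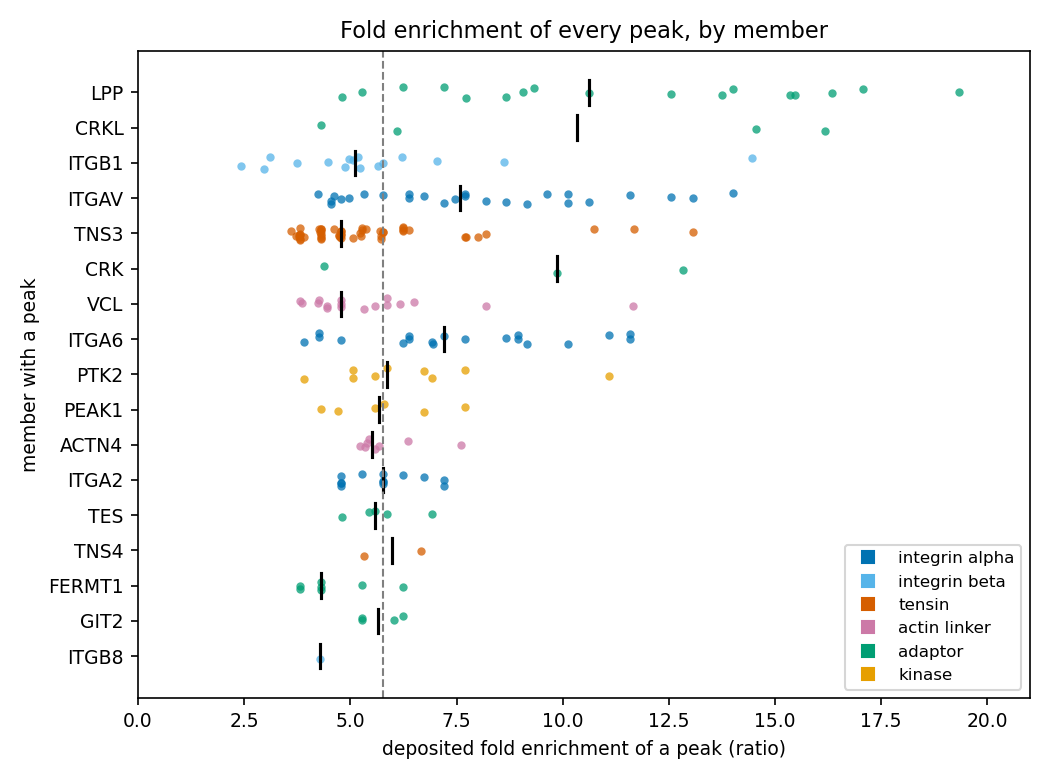
Deposited fold enrichment of every peak (horizontal axis, ratio) for the 17 members with a peak (vertical axis, ordered by best fold); points are peaks, black bars the median of a member, and the dashed line the median of all peaks, 5.76. LPP reaches 19.3 with a median of 10.6, whereas TNS3 has many peaks at a median of 4.79.

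Tensins bind integrin tails and actin, and the domain that binds the tail lies at their C-terminus. TNS3 (NCBI gene 64759, chr7:47275154-47582586) had 51 peaks in 307.4 kb, rank 9 among all protein-coding genes by number, and 16.6 per 100 kb (12.4 to 21.8), rank 778. Most were of low fold: the median was 4.79 and the lowest 3.60. The highest, 13.1, was a peak of 91 bp at chr7:47435317-47435407, and the widest, of 1183 bp at chr7:47368438-47369620, had 5.07. The summits fell in groups. The first 10 kb held 10, and the stretch from 140 to 240 kb held 35, while single summits lay at 21.4, 53.5 and 75.6 kb between them. TNS4, a short tensin without the actin-binding part of the protein, had 2 peaks, of 2058 bp (chr17:40499534-40501591, fold 6.66) and 288 bp (fold 5.32). TNS1, of 234.2 kb, and TNS2, of 17.4 kb, had none. Within this family the long genes TNS3 and TNS1 stood at 51 and 0 peaks.

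Of the linkers to actin, VCL and ACTN4 had peaks and TLN1, TLN2, ACTN1 and FLNA had none. VCL (NCBI gene 7414, chr10:73998116-74121363), which encodes vinculin, had 17 peaks in 123.2 kb (13.8 per 100 kb, 8.04 to 22.1). The highest fold, 11.7, lay at chr10:74070980-74071093, 72.9 kb into the gene, and the widest peak, of 1034 bp at chr10:73999561-74000594, had 6.51. A group of 6 summits lay in the first 10 kb. ACTN4, the non-muscle alpha-actinin 4, showed the same kind of grouping: 7 of its 8 summits were in the first 10 kb, with folds from 5.24 to 6.36, and the highest and widest peak, fold 7.60 and 659 bp, lay alone at chr19:38684667-38685325. Its paralog ACTN1, of 105.2 kb, had no peak, and neither had the talin genes, which encode the proteins that link the beta tail to actin.

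**Figure D4:**
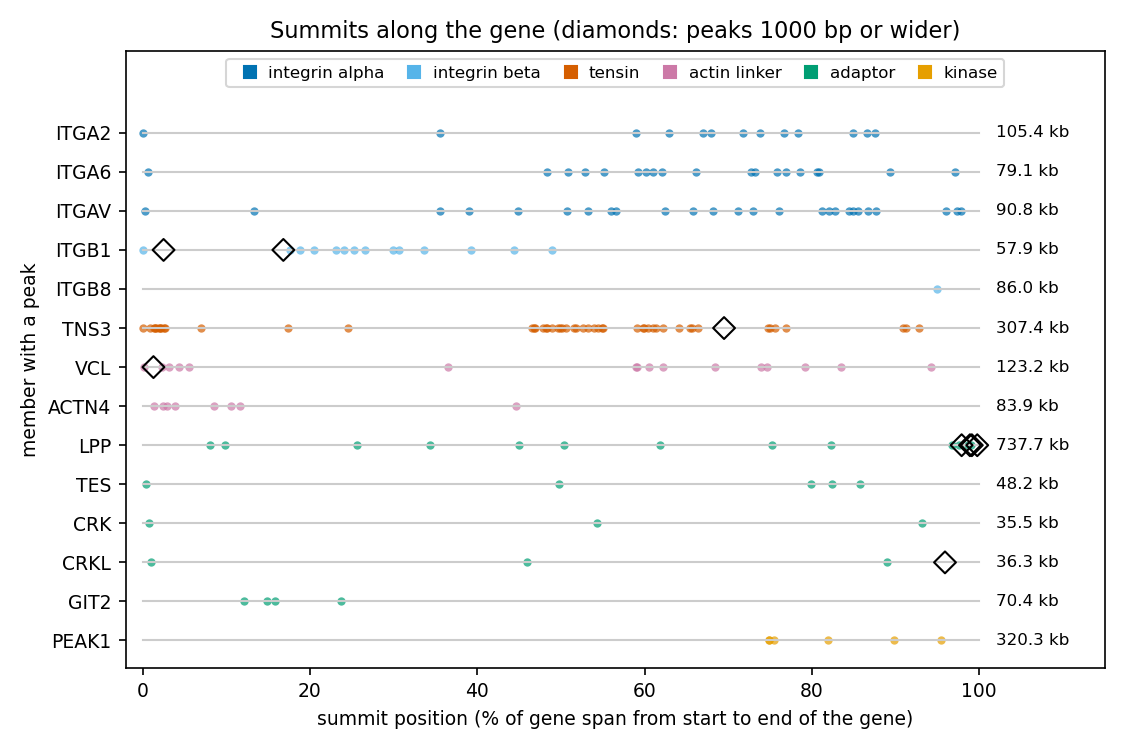
Position of each summit along the gene (horizontal axis, % of the span from start to end) in the 14 members with a peak and a known strand (vertical axis, span at the right); circles are peaks under 1000 bp and diamonds peaks of 1000 bp or wider. ITGB1 and ACTN4 have their summits in the first part of the gene, PEAK1 in the last, and the wide peaks of LPP lie at its end.

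The 2 highest best folds among the members were those of adaptors, LPP and CRKL. LPP (NCBI gene 4026, chr3:188153021-188890671), a zyxin-family LIM protein of focal adhesions and the longest member at 737.7 kb, had 17 peaks, 2.30 per 100 kb (1.34 to 3.69). Their median fold of 10.6 was the highest among the members with a peak, followed by CRKL at 10.3 and CRK at 9.87. The highest, 19.3, was a peak of 5712 bp at chr3:188874343-188880054 (q 6.44e-33), which ranked 39 of 23111 peaks. The last 30 kb of the gene held 8 of the 17 summits and 4 peaks of 1000 bp or wider. The folds of 5 peaks there, in order towards the end of the gene, were 19.3, 13.8, 17.1, 15.4 and 16.3, and the last, of 2886 bp at chr3:188886093-188888978, had 4.79. The other 9, from 89 to 676 bp wide, were scattered over the rest of the gene, with a median fold of 9.07 and a highest of 15.5 at chr3:188484593-188484715. A peak of 125 bp with a fold of 5.27 lay over the internal start shown above. Whether the wide peaks lie in an exon or a UTR was not resolved, since the reference used here gives gene spans without exons.

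CRKL and CRK encode SH2 and SH3 adaptors that dock on tyrosine-phosphorylated BCAR1 and paxillin, and these paralogs had a like layout. CRKL (NCBI gene 1399, chr22:20917407-20953747) had 4 peaks in 36.3 kb. The 831 bp peak beside the start (chr22:20917437-20918267) had a fold of 14.6, a peak at chr22:20933762-20934262, in the middle of the gene, had 16.2, and those nearest the end had 6.11 and 4.32, the last being the widest at 1907 bp (chr22:20950376-20952282). CRK (NCBI gene 1398, chr17:1420693-1456232) had 3 peaks in 35.5 kb. Again the start had a high fold, 12.8 at chr17:1455872-1456233, a peak in the middle at chr17:1436652-1437129 had 9.87, and the peak near the end, which was the widest at 533 bp (chr17:1423096-1423628), had 4.38. In each gene the fold at the start was higher than that near the end.

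TES, a LIM protein of zyxin complexes, had 5 peaks in 48.2 kb with folds from 4.80 to 6.93. The highest was at chr7:116249031-116249233 and the widest, of 241 bp, at chr7:116250250-116250490, and at 3 of the 5 summits a lncRNA span, LOC124901730, overlaps. FERMT1, the epithelial kindlin, had 7 peaks in 48.2 kb with folds from 3.82 to 6.24, the highest at chr20:6119424-6119587 and the widest, of 190 bp, at chr20:6122801-6122990. GIT2, an ARF GTPase-activating scaffold, had 4 narrow peaks with folds from 5.27 to 6.24, all between 8.50 and 16.7 kb from its start. Their paralogs FERMT2 and GIT1 had none. PXN, BCAR1, PARVA, PARVB and ZYX, the paxillin, p130Cas, parvin and zyxin genes, had none either.

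Of the kinases, PTK2 and PEAK1 had peaks and PTK2B, SRC and ILK had none. PTK2, the focal adhesion kinase gene on chromosome 8, had 9 peaks in 344.2 kb, 2.61 per 100 kb (1.20 to 4.96), between 71 and 175 bp wide. The highest had a fold of 11.1 and the others ran from 3.90 to 7.70. PEAK1, a pseudokinase that scaffolds SRC signalling, had 6 in 320.3 kb, all within the last 100 kb. The highest fold, 7.70, was at chr15:77132991-77133746 and the widest peak, 985 bp, at chr15:77178798-77179782. Protein-coding genes of 300 kb or more with a peak had a median of 6 peaks and 1.32 per 100 kb, so neither kinase gene lay below the median of its length group.

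Peaks of unusual width lay in integrin, tensin, linker and adaptor genes. A peak of 1000 bp or wider was present in 6 members, namely ITGB1, TNS3, TNS4, VCL, LPP and CRKL (13.0%, exact interval 4.94 to 26.3%), and in 2.19% of all protein-coding genes. These shares by gene are not matched for the number of peaks, and members had peaks more often. Counted by peak, 10 of the 208 member peaks were that wide, 4 of them in LPP, and 584 of the 23111 in the list. Of the 208 member peaks, 123 (59.1%) had another summit of the same gene within 2 kb, whereas 51.2% of peaks in protein-coding genes did. A summit in the last 5 kb of the span was found in 6 of the 14 members with a known strand (42.9%, 17.7 to 71.1%), namely ITGA6, ITGAV, ITGB8, LPP, CRK and CRKL, and in 28.2% of protein-coding genes with a peak and a known strand.

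**Figure D5:**
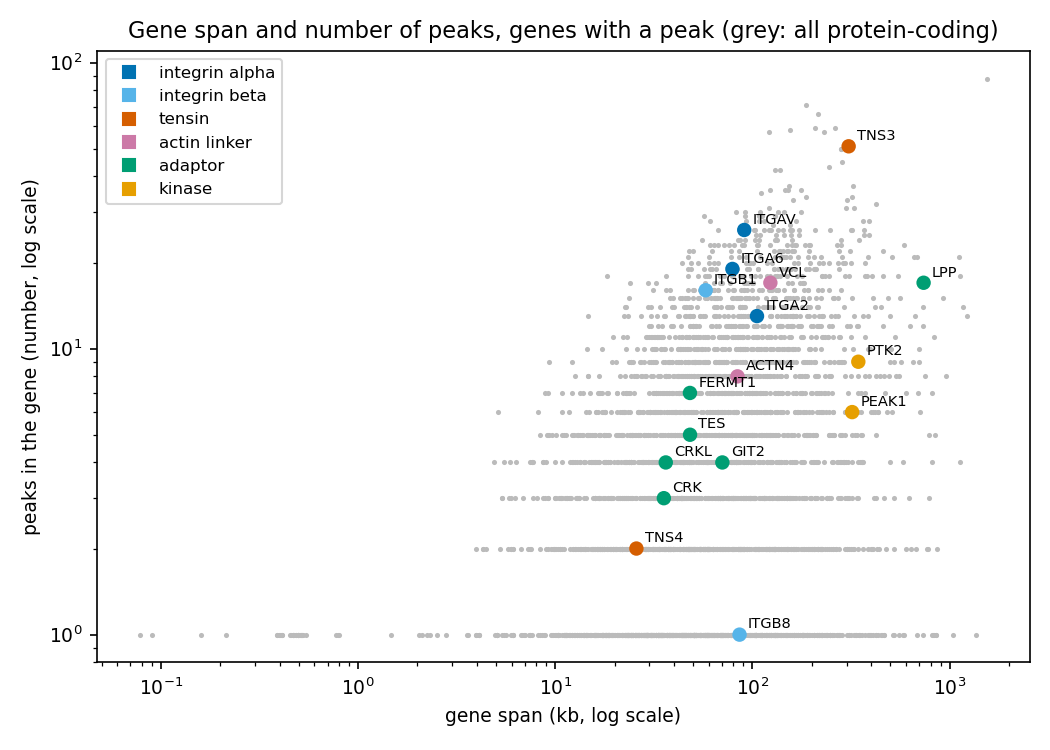
Gene span (horizontal axis, kb, log scale) and number of peaks (vertical axis, log scale) for the 17 members with a peak, named and coloured by class, over all protein-coding genes with a peak in grey. TNS3, LPP, PTK2 and PEAK1, all longer than 300 kb, stand at 51, 17, 9 and 6 peaks, and the median of protein-coding genes with a peak at that length is 6.

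Other genes of the adhesion pathway were counted by the same rule. Their lists were chosen with earlier results of these data known, so the shares and intervals describe the named genes and are no test of enrichment. Of 28 adhesion signalling genes 19 had a peak (67.9%, 47.6 to 84.1%), beside the 18.4% of all protein-coding genes and the 39.2% of those from 100 to 300 kb. The highest folds were in PTPN11 (20.6), the phosphatase SHP2, ROCK2 (18.9), a kinase that promotes actomyosin contraction, and YES1 (16.9), a SRC-family kinase. The most peaks were in DOCK5, an exchange factor for Rac, with 57, and in ROCK2 and ASAP1 with 28 each. Of 29 further adaptors and linkers 9 had a peak (31.0%, 15.3 to 50.8%), near the 30.5% of protein-coding genes from 30 to 100 kb. The list was led by the actin elongation factor ENAH with 13 peaks and a fold of up to 15.99. LIMD1 had 9 and up to 9.32, and LIMS1, the partner of ILK, had 11 and up to 9.003. Of the 8 remaining integrin subunits, which are largely those of leukocytes and platelets, 1 had a peak, ITGAE, at a fold of 3.72. The intervals of the signalling genes and of the further adaptors and linkers overlap only from 47.6 to 50.8%, and the difference between these lists was not tested. The lists also differ in gene length. The median span was 162.6 kb for the signalling genes, 43.4 kb for the further adaptors and linkers and 80.4 kb for the 46 members.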

How the data were processed

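RIP-seq peaks of 1 HNRNPC IP library from A549 cells were used. Per the submitters' processing notes, the tools included MACS2, HISAT2 and bedtools, with hg38 as the build, and versions, settings and the control used are not given in the sources used here. The deposited list holds per peak a score, a fold enrichment (a ratio), and a −log10 p and −log10 q, as the authors made them; in each of the 23148 rows the score is the −log10 q times 10, cut to a whole number. Coordinates are 1-based, and only the autosomes, X and Y were kept.

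Summits were placed in gene spans of RefSeq GRCh38.p14, and a summit counted for each gene whose span held it. All 46 symbols matched. Strand and start sequences came from the RefSeq promoter table, which had 35 of the members. Densities and shares have 95% exact intervals. Members and lists were chosen with earlier results of these data known, and the distances and widths used for grouping were chosen after the peaks were seen. Members among the 12 of highest fold or the 12 with most peaks were described in full, with positions of their highest and widest peaks except on chromosome 8; other pathway genes were named by up to 3 highest folds and 3 highest counts per list and as paralogs, with 1 item not reported here. Gene assignment was tested on simulated data. The alternatives tried were a limit on q of 0.001, a lower limit on fold of 6, overlap by any base, summits held by a single gene, and at least 2 peaks. Intervals were computed with scipy 1.17.1 and tables with pandas 2.3.3 under Python 3.11.15, and figures drawn with matplotlib 3.10.9.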

Additional observations from a re-analysis of the deposited data

How the results depend on the processing

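The number of members with a peak stayed at 17 with overlap by any base and with summits held by a single gene. That single-gene rule puts protein-coding genes before other biotypes, so it leaves in all 28 member summits that other annotated genes, lncRNA genes and a pseudogene, overlap. It was 16 with q of 0.001 or less, with a fold of 6 or more and with at least 2 peaks, ITGB8 being the member lost, so that 1 beta subunit in place of 2 had a peak under each of these. With a fold of 6 or more the members kept 90 of 208 peaks and a median of 3.52 peaks per 100 kb in place of 10.4. The share of all protein-coding genes with a peak was 16.7% with q of 0.001 or less, 12.4% with a fold of 6 or more, 17.2% with single-gene summits and 13.96% with at least 2 peaks. The median best fold of members with a peak was 11.1 or 11.3 under all 5 alternatives. They could hardly change it. Limits on q and fold leave the best peak of a gene that stays, and overlap by any base only adds peaks. The single-gene rule left the 208 member peaks in, and the rule of at least 2 peaks took out ITGB8 alone. The steady median is therefore no check of the best folds. No paired analysis was possible because there is 1 library per group. Folds are coarse: 116 of the 208 member peaks share their exact fold with 100 or more other peaks, so ranks among them are tied. In the whole list this holds for 13598 of 23111 peaks. Depth is unknown.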

Other observations

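Along the 14 members with a known strand, the 190 pooled summits were unevenly spread. From the start to the end of the span, cut into 5 equal stretches, these held 22.1, 8.95, 22.6, 24.7 and 21.6% of them. The same stretches held 19.7, 13.9, 18.4, 22.4 and 25.7% of the summits of all protein-coding genes with a strand. TNS3, ITGAV and ITGA6 gave 96 of the 190 member summits, so the spread describes the pool and not each gene.  Across the 17 members with a peak, span and number of peaks had a Spearman correlation of 0.58, and across all 3685 protein-coding genes with a peak one of 0.31. These are descriptions across genes of 1 library, which are not independent replicates. At 28 of the 208 member summits another annotated gene overlapped, 18 of these in ITGA6. The same share over all protein-coding genes is not given here, so this count describes the members alone.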
